A study of Mus musculus with 12 samples.

Results

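The transcripts described are those of 44 genes of autophagy and the lysosome, chosen by symbol from the deposited bulk RNA-seq table of mouse ventricle. All 44 were found among its 54949 rows, each in a single row, and all 44 passed the filter on low counts. They fall into 4 groups by role: 15 genes of initiation and membrane supply, 15 of the conjugation systems with the Atg8 family, 6 cargo receptors, and 8 of the lysosome and its transcription factors. RNA came from the ventricles, without atria, of wild-type male C57BL/6N mice in 2 groups of 6 libraries. One group modelled HFpEF (heart failure in which ejection fraction is preserved), and the other kept to normal diet and water. Mice of the model ate a high-fat diet and drank L-NAME, which blocks nitric oxide synthases, at 0.5 g/L for 5 weeks from an age of 8 weeks. Sample titles and library names contradict each other throughout: titles reading HFpEF, with diet plus L-NAME given as treatment, go with libraries named con, and titles reading CON, with normal diet, go with libraries named HF. Groups are named here by library (con-named, HF-named), every fold change divides HF-named by con-named, and the labels do not settle which group was treated. The labels hold 6 bulk samples per group where the design text speaks of 5. They do not say whether libraries came from separate mice, so the p-values reflect spread among these samples, which may be technical.

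Library totals ran from 14443186 to 22048689 counts, and mitochondrial-DNA transcripts took 21.0 to 24.0% of counts in the con-named and 23.9 to 27.2% in the HF-named libraries. Levels within a gene are given as CPM, read counts scaled for depth by TMM, a method that aligns libraries on the bulk of their genes. At this depth 3 counts correspond to 0.142 to 0.217 CPM, and no member was near that level, the lowest being Atg4c at 4.39 ± 0.478 CPM in the con-named libraries (SD, n = 6). Levels between genes are compared only as the deposited FPKM, which is per length of transcript. The cardiomyocyte markers Myh6 and Actc1 (mean FPKM over all libraries 4660 and 4655) stood far above the leading markers of pericytes and smooth muscle (Rgs5 147, Acta2 45.9), fibroblasts (Gsn 234, Dcn 45.7), endothelium (Fabp4 115, Cdh5 44.3) and macrophages (Lyz2 78.9, C1qb 26.2). The red cell genes Hbb-bs and Hba-a1 were at 294 and 197 FPKM, the neutrophil genes S100a9 and S100a8 at 6.91 and 3.52, and the lymphocyte genes Cd79b and Nkg7 at 0.960 and 0.934. In whole tissue, fewer cells of a type and less RNA per cell cannot be told apart.

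Autophagy encloses cytoplasm or an organelle in a double membrane, the autophagosome, and delivers it to the lysosome, where acid hydrolases break it down. The ULK1 kinase complex starts the process, a class III phosphatidylinositol 3-kinase complex marks the growing membrane, and ubiquitin-like conjugation attaches proteins of the Atg8 family (LC3 and GABARAP) to its lipid, where cargo receptors bind them. In the heart the pathway is known for turning over mitochondria and protein aggregates in long-lived muscle cells, and its genes are known targets of TFEB, TFE3 and FoxO transcription factors. Much of its control lies in phosphorylation and flux, which RNA levels do not measure.

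Of the 44 genes, 6 rose in the HF-named libraries and 1 fell. Those that rose were the kinase gene Ulk2, its complex partner Rb1cc1, the lipid kinase partner Uvrag, the Atg8 family gene Gabarapl1, the mitochondrial receptor gene Bnip3 and the lysosomal protease gene Ctsd, and the one that fell was Gabarap. A gene was called where the quasi-likelihood test of edgeR gave an adjusted p under 0.05 (Benjamini-Hochberg, over the 15114 genes that passed the filter). By this rule 8.28% of all genes rose and 5.05% fell (13.3% in either direction), so 6 of 44 higher (13.6%) and 1 of 44 lower (2.27%) lie near the background. The changes were small, from 1.46-fold for Bnip3 to 1.14-fold for Uvrag among those that rose. The median log2 fold change of the 44 was 0.10, against -0.01 over all genes tested, and 33 of 44 estimates were positive (75.0%, against 47.3% of all genes). Scaling by library totals in place of TMM moved the median of all genes to -0.13 and that of the 44 to -0.01. It left 19 positive estimates, and gave 2 of the 44 genes higher (Bnip3 and Ulk2) and 6 lower (Gabarap, Ctsl, Atg101, Atg4b, Atg4d and Tfeb). Over all 15114 genes tested the same scaling gave 483 higher and 2582 lower, so the turn downward was shared by genes at large. The estimates of 14 of the 44 genes thus changed sign between TMM and library totals. With RLE, another scaling method, 33 were positive, and the medians were 0.10 for the 44 and -0.01 for all genes. In DESeq2 34 were positive, and in the fits with 1 library left out 31 to 35 were.

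**Figure D1:**
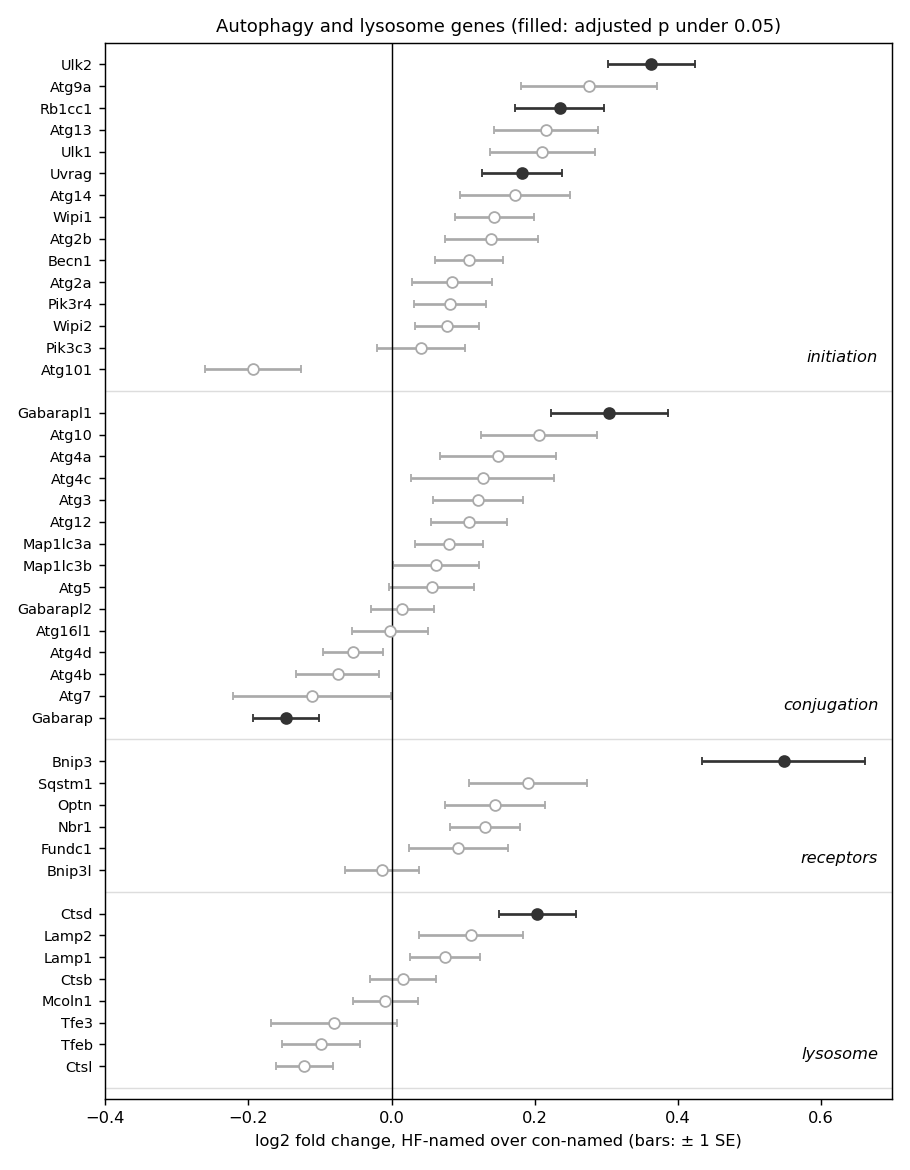
Log2 fold change (HF-named over con-named, x axis) of each of the 44 genes with its standard error, grouped by role. Filled points passed an adjusted p of 0.05: 6 lie to the right of 0 and Gabarap lies to the left, and in the initiation group 14 of 15 estimates are positive.

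Libraries differed in these genes within each group. Con-named replicate 5 was the lowest of its group for 23 of the 44 genes, and HF-named replicate 3 was the lowest of its own for 23. Without HF-named replicate 3, 11 genes passed as higher, the added ones being Atg13, Atg9a, Nbr1, Sqstm1, Ulk1 and Wipi1, while Uvrag was lost. Calls also grew over all genes, to 1581 of 15259 higher, against 1252 of 15114 with all libraries. Without con-named replicate 5, 2 genes passed as higher, Bnip3 and Ulk2 (836 of 15132 over all genes). Without HF-named replicate 5, 3 did, Bnip3, Ctsd and Ulk2 (841 of 15185). With con-named replicate 5 and HF-named replicate 3 both left out, an alternative added after the data were seen, 5 were higher (Ulk2, Bnip3, Gabarapl1, Atg13 and Atg9a) and 2 lower (Gabarap and Ctsl). Over all 15090 genes of that fit 1139 were higher and 748 lower.

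Of the 15 genes that start autophagy 3 rose, 0 fell and 12 did not pass, against 8.28% higher and 5.05% lower over all genes. Their median log2 fold change was 0.14, and their median exon length was 6488 bases, against 4168 over all genes tested, where longer genes had higher estimates. With length and GC content modelled, an alternative described below, the group's estimates ran from -0.06 (Atg101) to 0.35 (Ulk2). All but that of Atg101 were positive in that fit. The part of length in the group's median was not tested. Under library totals 1 of the 15 was higher (Ulk2) and Atg101 was lower. Ulk2 encodes a serine/threonine kinase that, with its close relative Ulk1, sits at the head of the pathway. It ranged from 64.9 to 80.9 CPM (median 78.8) in the con-named and from 86.4 to 105 CPM (median 99.996) in the HF-named libraries. The groups did not overlap. Such a separation upward held for 3.41% of all genes tested and for no other member, and the same separation downward held for 1.95% of all genes and for 0 members. Its log2 fold change was 0.36 (SE 0.06; edgeR, adjusted p = 0.00186), with means of 76.5 ± 5.86 and 98.4 ± 7.26 CPM (SD, n = 6 each). It passed in all 12 fits that each left out 1 library, with estimates from 0.31 to 0.40. Ulk2 (ENSMUSG00000004798) lies on the minus strand of mm10 chromosome 11, 61775649 to 61855073.

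Ulk1 itself, the better known of the pair, ran from 77.4 to 107 CPM (median 92.4) in the con-named and from 95.95 to 119 CPM (median 107) in the HF-named libraries. Its log2 fold change of 0.21 did not pass (edgeR adjusted p = 0.0662), and it passed only without HF-named replicate 3 or con-named replicate 2 among the 12 fits with a library left out. Rb1cc1, which encodes the scaffold FIP200 of the ULK1 complex, ran from 62.2 to 81.0 CPM (median 67.5) in the con-named and from 77.6 to 89.0 CPM (median 78.4) in the HF-named libraries. A single con-named library, replicate 3, reached into the HF-named range. The log2 fold change of Rb1cc1 was 0.23 (SE 0.06, edgeR adjusted p = 0.0218), and it was lost without HF-named replicates 4 or 5 or con-named replicates 5 or 6 (adjusted p up to 0.0571) and under library totals (0.12, adjusted p = 0.134). The other subunit genes of that complex, Atg13 (0.22, edgeR adjusted p = 0.0583) and Atg101 (-0.19, 0.0663), did not pass and had opposite signs.

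Uvrag encodes a partner of Beclin 1 in the lipid kinase complex that acts in autophagosome maturation and endosomal traffic. It ran from 20.5 to 23.6 CPM (median 22.1) in the con-named and from 23.1 to 26.7 CPM (median 25.4) in the HF-named libraries, with 5 of 6 HF-named libraries above every con-named one. Its log2 fold change was 0.18 (SE 0.06, edgeR adjusted p = 0.0395), a call that held in 4 of the 12 fits with a library left out (adjusted p up to 0.0967): those without HF-named replicates 1 or 2 or con-named replicates 2 or 6. It was also lost without the filter on low counts (adjusted p = 0.108) and under library totals (0.07, adjusted p = 0.449). With a block for replicate number Uvrag did not pass either (edgeR adjusted p = 0.0957). Uvrag shares 17.6% of its exon bases with the antisense transcript Gm45187. The other genes of the lipid kinase complexes did not pass: Atg14, the autophagy-specific subunit (0.17), Becn1, which encodes Beclin 1 (0.11), the regulatory subunit gene Pik3r4 (0.08) and the catalytic subunit gene Pik3c3 (0.04). Under library totals the estimates of Becn1, Pik3r4 and Pik3c3 turned negative. Becn1 shares 43.9% of its exon bases with Cntd1 on the opposite strand.

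Among genes that carry membrane and lipid to the growing structure, none passed. Atg9a, which encodes the membrane protein of Atg9 vesicles, had an estimate of 0.28 (SE 0.09; edgeR, adjusted p = 0.0632), with 5 of 6 HF-named libraries above every con-named one, and it shares 31.8% of its exon bases with the transcript Gm29253 on the same strand. Wipi1, a phosphoinositide-binding adaptor and the most abundant gene of this group at 23.0 ± 1.21 FPKM (SD, n = 12), ran from 89.7 to 102 CPM (median 96.1) in the con-named and from 94.6 to 119 CPM (median 106) in the HF-named libraries (0.14, edgeR adjusted p = 0.0961). Its relative Wipi2 (0.08) and the lipid transfer genes Atg2b (0.14) and Atg2a (0.08) had adjusted p-values of 0.263, 0.169 and 0.339, and under library totals Wipi2 and Atg2a turned negative.

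**Figure D2:**
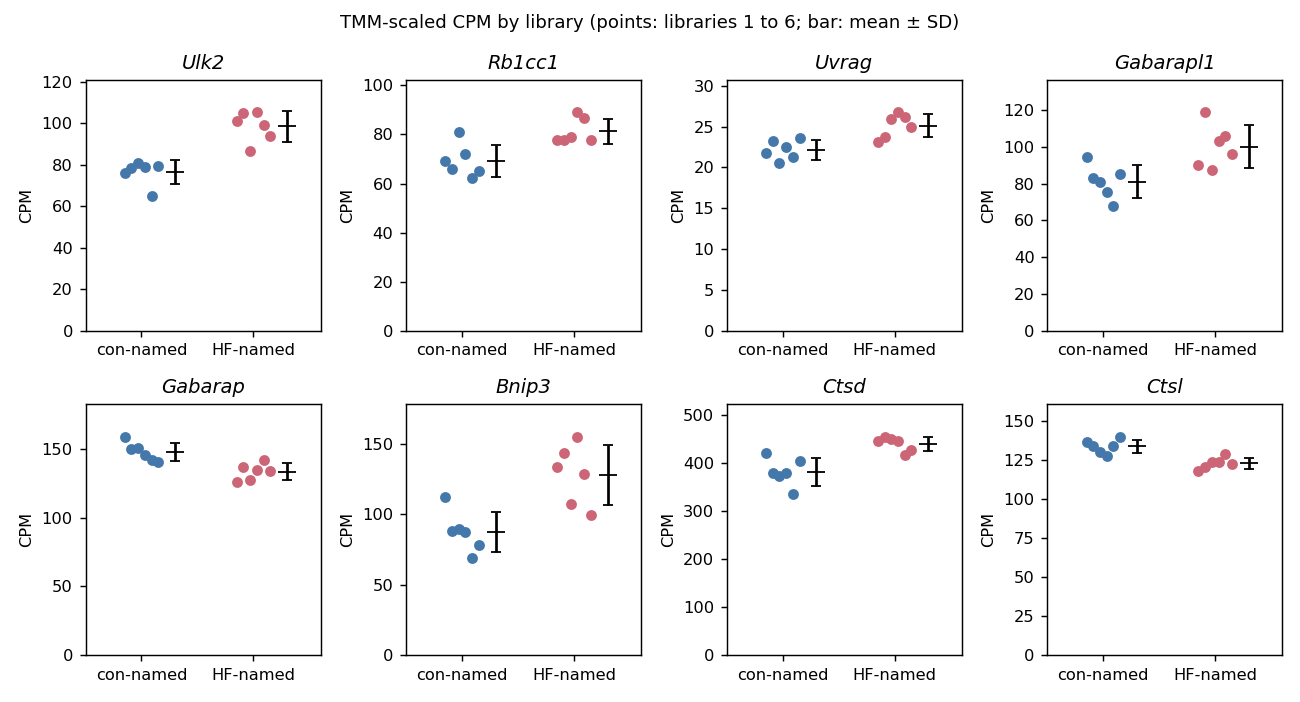
CPM (y axis, starting at 0) in each of the 12 libraries for the 7 genes that passed and for Ctsl, with the mean and SD of each group. Only for Ulk2 do the 2 groups of points not overlap, and HF-named points of Gabarap and Ctsl sit lower, with 5 of 6 below every con-named library.

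In the conjugation group 1 of 15 genes rose and 1 fell (6.67% each), near the 8.28% higher and 5.05% lower over all genes. Both belong to the Atg8 family. These small ubiquitin-like proteins are cleaved by Atg4 proteases, activated by Atg7, and joined to phosphatidylethanolamine by Atg3 with the help of the Atg12-Atg5-Atg16l1 complex. Gabarapl1 ran from 67.7 to 94.4 CPM (median 81.8) in the con-named and from 87.3 to 119 CPM (median 99.4) in the HF-named libraries. The groups overlapped, with 4 of 6 HF-named libraries above every con-named one. The log2 fold change was 0.30 (SE 0.08, edgeR adjusted p = 0.0217). The call was lost without HF-named replicates 2 or 5 or con-named replicate 5 (adjusted p up to 0.0528) and under library totals (0.19, adjusted p = 0.0627). With a block for replicate number Gabarapl1 did not pass either (edgeR adjusted p = 0.0543). Of its exon bases 28.3% are shared with 1700101I11Rik on the opposite strand, and the reads of such pairs cannot be told apart without strand information.

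Gabarap ran from 141 to 159 CPM (median 148) in the con-named and from 127 to 142 CPM (median 135) in the HF-named libraries, and 5 of 6 HF-named libraries were lower than every con-named one. The estimate of -0.15 on the log2 scale (SE 0.05, adjusted p = 0.0427 in edgeR) held in 3 of the 12 fits with a library left out, those without HF-named replicate 5 or con-named replicates 5 or 6 (adjusted p up to 0.0892). It was lost without the filter on low counts (adjusted p = 0.108) and with a block for replicate number (edgeR adjusted p = 0.129). Under library totals the fall was larger, at -0.26 (adjusted p = 0.00109). A ratio within a library does not depend on scaling: the FPKM of Gabarapl1 over that of Gabarap ran from 0.435 to 0.553 in the con-named and from 0.628 to 0.790 in the HF-named libraries, without overlap. This ratio was formed after the change of each gene was known and carries no test.

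Map1lc3a, which encodes LC3A, was the most abundant of the 44 genes, at 246 ± 7.19 FPKM (SD, n = 12). It made up 57.6 to 60.7% of the summed FPKM of the 5 Atg8 family genes in the con-named and 58.2 to 60.9% in the HF-named libraries. Gabarap made up 17.97 to 20.5% and 16.9 to 17.5%, and Gabarapl1 8.83 to 10.70% and 10.73 to 13.5%, without overlap between groups for either. The Gabarapl1 shares of the groups nearly met. Both genes had passed in opposite directions, and the shares carry no test. Map1lc3b (6.32 to 7.15% and 6.14 to 7.22%) and Gabarapl2 (4.88 to 5.26% and 4.79 to 5.12%) had overlapping shares. In CPM, Map1lc3a ran from 267 to 305 (median 278) in the con-named and from 283 to 309 (median 302) in the HF-named libraries, a log2 fold change of 0.08 that did not pass (edgeR adjusted p = 0.283). The LC3B gene Map1lc3b (0.06) and Gabarapl2 (0.02), which encodes GATE-16, did not pass either, and the estimates of all 3 turned negative under library totals.

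**Figure D3:**
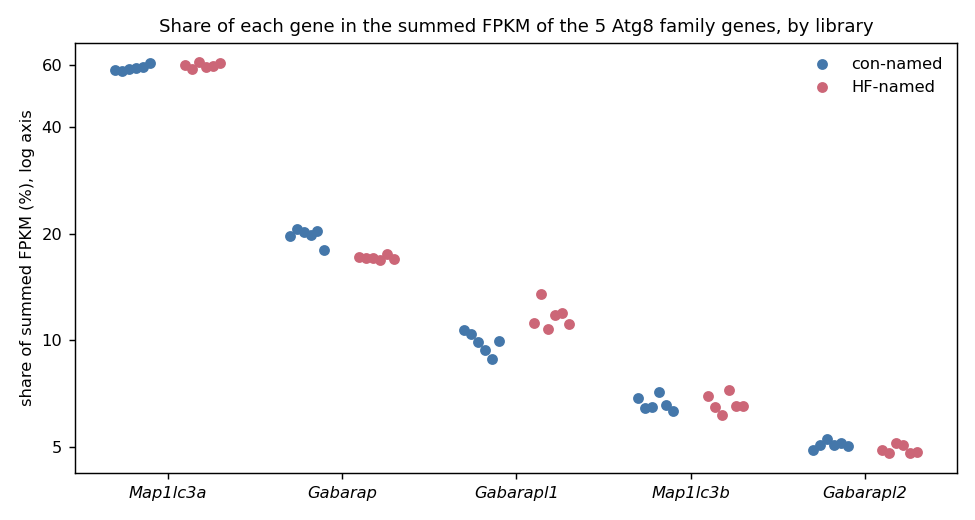
Share of each gene in the summed FPKM of the 5 Atg8 family genes (y axis, log scale), 1 point per library. Map1lc3a holds between 57.6 and 60.9% over both groups, while Gabarap points of the HF-named libraries lie below and Gabarapl1 points above all those of the con-named libraries.

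None of the 10 genes of the conjugation enzymes passed. The E1-like gene Atg7 had a log2 fold change of -0.11, and its con-named replicate 2, at 29.2 CPM, stood above the other 5 con-named libraries (17.6 to 21.0 CPM). Without that library the Atg7 estimate was 0.01. The E2-like genes Atg3 (0.12) and Atg10 (0.21) had adjusted p-values of 0.217 and 0.104. The Atg4 protease genes ran from -0.08 for Atg4b and -0.05 for Atg4d, both lower under library totals, to 0.13 for Atg4c and 0.15 for Atg4a. Atg4d shares 19.3% of its exon bases with Kri1 on the opposite strand. Atg12 (0.11), Atg5 (0.06) and Atg16l1 (-0.00), whose products form the E3-like complex, had adjusted p-values of 0.191, 0.598 and 0.982, and Atg12 and Atg5 turned negative under library totals.

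Among the 6 cargo receptors, Bnip3 rose (16.7%, against 8.28% of all genes) and the others did not pass. Bnip3 encodes an outer mitochondrial membrane protein that binds LC3 and GABARAP proteins and is a known target of hypoxia-inducible factors and FoxO3. It ran from 68.8 to 112 CPM (median 88.1) in the con-named and from 99.7 to 155 CPM (median 131) in the HF-named libraries, with 4 of 6 HF-named libraries above every con-named one. The log2 fold change was 0.55 (SE 0.11, edgeR adjusted p = 0.00606), the largest of the 44, with means of 87.5 ± 14.5 and 128 ± 21.2 CPM (SD, n = 6 each). It passed in all 12 fits with a library left out, with estimates from 0.48 to 0.63, and under library totals (0.43, adjusted p = 0.0106). Of its exon bases 22.2% are shared with the antisense transcript Gm45507.

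Bnip3l, the close relative also known as NIX, was at 57.9 ± 2.70 and 57.3 ± 3.78 CPM (SD, n = 6 each), and its estimate was -0.01 on the log2 scale (SE 0.05; adjusted p = 0.891 in edgeR). The ratio of Bnip3 to Bnip3l in FPKM ran from 2.09 to 3.04 in the con-named and from 2.87 to 4.63 in the HF-named libraries. The aggregate receptor gene Sqstm1, which encodes p62 and was the most abundant receptor at 161 ± 13.8 FPKM (SD, n = 12), ran from 452 to 588 CPM (median 502) in the con-named and from 461 to 641 CPM (median 612) in the HF-named libraries. Its log2 fold change of 0.19 did not pass (edgeR adjusted p = 0.135) except without HF-named replicate 3 (adjusted p = 0.0242). Sqstm1 shares 17.3% of its exon bases with Mrnip on the opposite strand. Nbr1, a relative of Sqstm1 (0.13), Optn, which encodes optineurin (0.14), and the mitochondrial receptor gene Fundc1 (0.09) had adjusted p-values of 0.0846, 0.183 and 0.40.

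In the lysosome group 1 of 8 genes rose, Ctsd (12.5%, against 8.28% of all genes), and the median log2 fold change was 0.00. Ctsd encodes the aspartic protease cathepsin D and was the second most abundant of the 44 genes, at 174 ± 11.8 FPKM (SD, n = 12). It ran from 334 to 419 CPM (median 379.5) in the con-named and from 417 to 454 CPM (median 445) in the HF-named libraries, with 5 of 6 HF-named libraries above every con-named one. The log2 fold change was 0.20 (SE 0.05, edgeR adjusted p = 0.0217). The call was lost without con-named replicate 5 (adjusted p = 0.053) and with that library and HF-named replicate 3 both left out (0.15, adjusted p = 0.0635). It was also lost without the filter on low counts (adjusted p = 0.0727), with a block for replicate number (edgeR adjusted p = 0.0538) and under library totals (0.09, adjusted p = 0.209). Ctsd shares 34.4% of its exon bases with the gene model Gm49369 on the same strand.

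The cysteine protease genes did not follow Ctsd. Ctsl, for cathepsin L, ran from 128 to 140.1 CPM (median 134) in the con-named and from 118 to 129 CPM (median 123) in the HF-named libraries, with 5 of 6 HF-named libraries below every con-named one. Its log2 fold change of -0.12 did not pass (edgeR adjusted p = 0.0559), but passed in DESeq2 (adjusted p = 0.0153), with a filter of 1 CPM in 6 libraries (adjusted p = 0.0321), without mitochondrial-DNA transcripts (adjusted p = 0.0477) and under library totals (-0.24, adjusted p = 0.00229). It overlaps the antisense transcript Gm47123 over 26.8% of its exon bases. Ctsb, for cathepsin B, was at 398 ± 15.6 and 402 ± 16.7 CPM (SD, n = 6 each), and its estimate was 0.02 on the log2 scale (SE 0.05; adjusted p = 0.856 in edgeR). Ratios in FPKM were formed after these changes were known. Ctsd over Ctsl ran from 6.88 to 8.47 in the con-named and from 8.93 to 10.4 in the HF-named libraries, without overlap. Ctsd over Ctsb ran from 2.31 to 2.62 and from 2.60 to 3.03, with overlap.

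The lysosomal membrane genes Lamp1, Lamp2 and Mcoln1, the last encoding a calcium channel, did not pass. Lamp1 ran from 284 to 329 CPM (median 307) in the con-named and from 302 to 338 CPM (median 329) in the HF-named libraries (0.08, edgeR adjusted p = 0.335). Lamp2 (0.11) and Mcoln1 (-0.01) had adjusted p-values of 0.336 and 0.925, and Lamp1 and Lamp2 turned negative under library totals. Tfeb, the main transcription factor gene of lysosome biogenesis, ran from 24.9 to 29.8 CPM (median 26.7) in the con-named and from 24.0 to 26.8 CPM (median 25.1) in the HF-named libraries (-0.10, edgeR adjusted p = 0.249). Tfe3, its relative, ran from 15.9 to 20.6 CPM (median 16.7) and from 13.6 to 19.2 CPM (median 17.1), with a log2 fold change of -0.08 (edgeR adjusted p = 0.593). These factors are controlled mainly by their entry into the nucleus, which was not measured.

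TFEB and TFE3 bind a palindromic site whose core is the E-box CACGTG, and the longer form TCACGTGA is typical of lysosomal genes. Both forms were searched on both strands in RefSeq promoter windows (GRCm38.p6) from 250 bases before to 50 bases after each start, together with the forkhead motif GTAAACA, and each TCACGTGA also holds a CACGTG. Windows were found for 36 of the 44 genes (not Atg12, Map1lc3a, Rb1cc1, Ctsb, Pik3c3, Atg16l1, Bnip3l or Becn1). CACGTG was found in 9 of 36 (25.0%), against 11.6% of 10631 tested genes with a window and 8.09% of all 27025 genes with one. TCACGTGA was found in 3 of 36 (8.33%; Atg3, Ctsd and Mcoln1), against 2.08% of the tested genes, and GTAAACA in 0 of 36, against 3.22%. Of the genes that passed the test, Ctsd and Bnip3 held CACGTG, with Ctsd matches 99 and 245 bases before the start. Lamp1 and Mcoln1, which held 4 and 2 matches close together, had log2 fold changes of 0.08 and -0.01. The other genes with CACGTG, Atg3, Atg5, Atg7, Atg14 and Ctsl (-0.12), did not pass either. A match describes the letters of the window and shows no binding. Stretches around the matches of Bnip3, Lamp1 and Mcoln1 and the Ctsd match at 99 bases are shown with the matches in capitals. They are read 5′ to 3′ on the gene's strand, end before the start, and compare genes that changed with genes that did not pass.
Ctsd promoter, chr7:142387893-142387952, minus strand: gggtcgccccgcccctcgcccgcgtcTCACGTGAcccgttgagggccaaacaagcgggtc
Bnip3 promoter, chr7:138909582-138909641, minus strand: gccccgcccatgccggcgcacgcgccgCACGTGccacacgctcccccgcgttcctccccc
Lamp1 promoter, chr8:13159073-13159160, plus strand: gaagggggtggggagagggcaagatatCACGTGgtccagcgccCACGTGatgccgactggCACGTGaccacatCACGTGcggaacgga
Mcoln1 promoter, chr8:3500421-3500506, plus strand: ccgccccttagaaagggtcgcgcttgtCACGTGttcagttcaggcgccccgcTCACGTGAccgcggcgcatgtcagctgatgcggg

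Transcript length moved with the comparison across all genes. The median log2 fold change rose from -0.09 in the fifth of genes with the shortest exon sequence (57 to 2117 bases in all) to 0.06 in the fifth with the longest (7303 to 123179 bases). Among the genes that passed, Rb1cc1 (14690 bases) and Uvrag (9035) are long and Gabarap (1844) is short, while Gabarapl1 (2013), Bnip3 (2265) and Ctsd (2351) are short and rose. With exon length and GC content modelled as an offset per library, an alternative added after the data were seen, Ulk2 (0.35, edgeR adjusted p = 0.00202), Bnip3 (0.61, 0.00436), Gabarapl1 (0.40, 0.00919) and Ctsd (0.31, 0.00502) still passed as higher. Rb1cc1 (0.13, edgeR adjusted p = 0.152), Uvrag (0.14, 0.124) and Gabarap (-0.08, 0.31) did not. In that fit Map1lc3a (0.18, edgeR adjusted p = 0.0474) and Atg10 (0.25, 0.0413) also passed as higher and Ctsl (-0.15, 0.0339) as lower, so that 6 of 44 were higher and 1 lower, against 7.04% and 3.07% of all genes in the same fit.

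**Figure D4:**
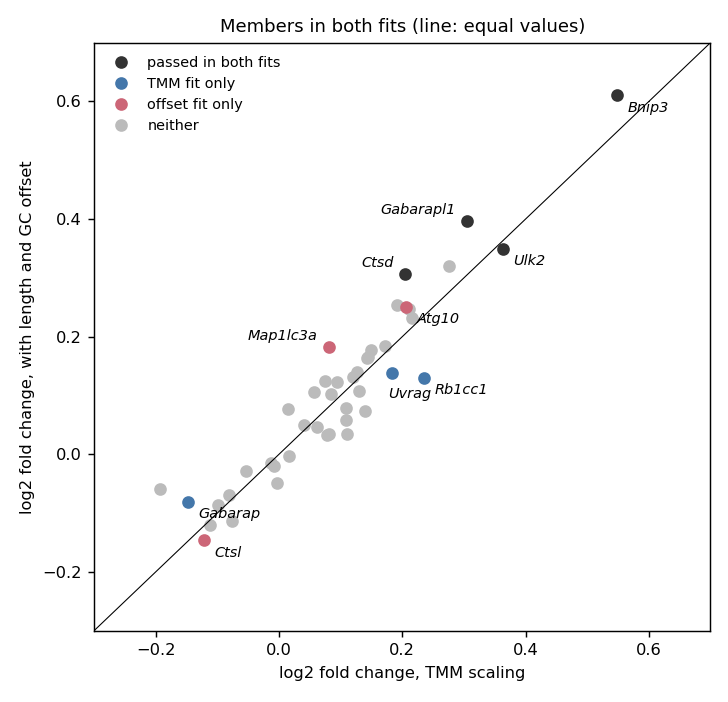
Log2 fold change of each of the 44 genes with TMM scaling (x axis) and with the added offset for exon length and GC content (y axis), the line marking equal values. Ulk2, Bnip3, Gabarapl1 and Ctsd passed in both fits. Ctsd and Map1lc3a, short and with 55.1 and 61.1% GC, lie above the line, and Rb1cc1, long and with 38.8% GC, lies below it. Ulk1, with 6488 bases and 58.1% GC, also lies above it. The parts of length and GC content were not tested apart.

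The authors' deposited table, which sets HF over control by its column names, gives 5 of the 44 genes an adjusted p under 0.05 as higher and 2 as lower, against 3.39% and 1.72% of its 33183 genes with a p-value. In the authors' deposited table these are Ulk2 (log2 fold change 0.36, adjusted p = 1.7e-05), Bnip3 (0.55, 0.000443), Ctsd (0.21, 0.00904), Gabarapl1 (0.31, 0.0174) and Rb1cc1 (0.24, 0.0191), with Ctsl (-0.12, 0.0345) and Gabarap (-0.15, 0.0389) lower. Uvrag has an adjusted p of 0.0751 in the authors' deposited table.

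Beyond the 44 genes, 5 wider lists of 161 symbols were counted, of which 158 were in the table and tested, with 23 genes higher and 9 lower (14.6% and 5.70%, against 8.28% and 5.05% of all genes tested). In the list of upstream control 10 of 34 rose (29.4%), 3 fell (8.82%), and the median log2 fold change was 0.07. Fnip2, a folliculin partner that links AMPK to mTORC1 signalling, went from 20.8 ± 2.86 to 38.2 ± 9.05 CPM (0.88, SE 0.13; adjusted p = 0.000887 in edgeR). Mtor, the kinase that represses the ULK1 complex when nutrients are plentiful, went from 61.4 ± 5.15 to 79.3 ± 7.47 CPM (0.37, SE 0.07, adjusted p = 0.00338). The AMPK subunit gene Prkab2 went from 59.4 ± 3.42 to 72.3 ± 5.50 CPM (0.28, SE 0.06, adjusted p = 0.0048). The other 7 that rose in this list, named after their values were seen, were Fnip1 (0.46), Prkaa2 (0.37), Sesn3 (0.36), Tsc1 (0.34), Deptor (0.27), Rptor (0.25) and Rragc (0.18), and the 3 that fell were Prkab1 (-0.22), Lamtor2 (-0.19) and Lamtor5 (-0.18). With the offset for length and GC content Prkab1, Lamtor2, Lamtor5 and Deptor no longer passed (edgeR adjusted p = 0.252, 0.534, 0.25 and 0.062).

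Among 30 tested genes of further core and selective autophagy, 6 rose and 1 fell, with a median log2 fold change of 0.06. The share that rose lay above the 8.28% of all genes tested, and the share that fell lay below the 5.05%. Trp53inp2, which encodes the autophagy cofactor DOR, went from 485 ± 34.1 to 642 ± 21.98 CPM (0.40, SE 0.05, edgeR adjusted p = 0.000668), with all 6 HF-named libraries above every con-named one. Tax1bp1, a ubiquitin-binding receptor, went from 95.7 ± 5.80 to 112 ± 3.85 CPM (0.22, SE 0.05, adjusted p = 0.00653) but did not pass with the offset for length and GC content (adjusted p = 0.0665), and Fkbp8, a mitochondrial receptor, fell from 114 ± 2.05 to 98.6 ± 4.36 CPM (-0.21, SE 0.04, adjusted p = 0.00406). The other 4 that rose, named after their values were seen, were the endoplasmic reticulum receptor gene Retreg1 (0.46), the ferritin receptor gene Ncoa4 (0.30), the small heat shock protein gene Hspb8 (0.21) and its partner Bag3 (0.19).

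Genes that act after the autophagosome is made had calls in both directions. Their shares were 4.35% higher and 8.70% lower for fusion, 11.8% and 5.88% for the V-ATPase, and 7.41% and 3.70% for other lysosomal genes. Over all genes tested 8.28% were higher and 5.05% lower. In 23 genes of fusion with the lysosome 1 rose and 2 fell: Vamp8, an R-SNARE of the fusion step, fell from 33.6 ± 1.93 to 27.4 ± 2.90 CPM (-0.29, adjusted p = 0.0118 in edgeR), and the tethering subunit genes Vps16 (-0.17, adjusted p = 0.0292) and Vps41 (0.19, adjusted p = 0.0132) moved in opposite directions. Vps16 was lost without HF-named replicates 1 or 5 and with the length and GC offset (adjusted p = 0.088). Of 17 subunits of the V-ATPase, the proton pump that acidifies the lysosome, the membrane sector genes Atp6v0a2 (0.26, adjusted p = 0.00614) and Atp6v0a1 (0.20, adjusted p = 0.0079) rose and Atp6v1d of the catalytic sector fell (-0.18, adjusted p = 0.0119). Of 54 other lysosomal hydrolase and membrane genes 4 rose and 2 fell, with a median of 0.03, near the background. Psap, the precursor of the saposins that assist sphingolipid breakdown, went from 1177 ± 89.6 to 1426 ± 85.1 CPM (0.28, SE 0.06; adjusted p = 0.00933 in edgeR), the chloride-proton exchanger gene Clcn7 had 0.19 (adjusted p = 0.0153), and Ctsc, for cathepsin C, fell from 40.7 ± 2.54 to 30.6 ± 2.87 CPM (-0.41, SE 0.06, adjusted p = 0.00139). Igf2r (0.35), Scarb2 (0.30) and Ctso (-0.23), named after their values were seen, complete these calls.

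Some calls in the wider lists rest on single libraries or on the scaling. At least 1 of the 12 fits with a library left out lost Deptor, Prkab1, Rragc, Lamtor2, Lamtor5, Ncoa4, Bag3, Vps16, Ctso, Scarb2 and Igf2r, which makes 11 of the 32 calls. Under library totals the 5 lists together held 10 genes higher and 29 lower. Of the genes named by rule, Tax1bp1, Vps41, Atp6v0a1, Atp6v0a2 and Clcn7 then no longer passed (edgeR adjusted p = 0.0652, 0.262, 0.155, 0.0602 and 0.299), and neither did Rptor, Deptor, Rragc, Ncoa4, Bag3, Hspb8, Scarb2 or Igf2r.

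**Figure D5:**
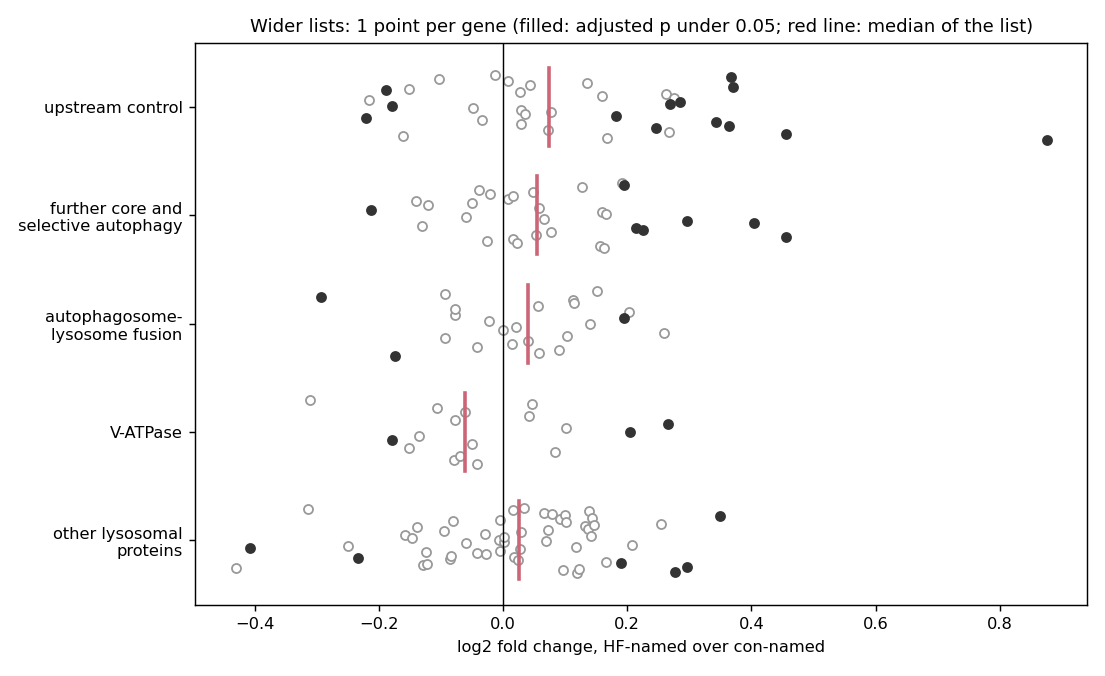
Log2 fold change (x axis) of each gene of the 5 wider lists, filled where the adjusted p was under 0.05, with the median of each list as a red line. The list medians lie between -0.06 (V-ATPase) and 0.07 (upstream control), and Fnip2 at 0.88 is the rightmost point.

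Markers of other cell types were counted in the same libraries, against 8.28% higher and 5.05% lower over all genes. Of 10 markers of macrophages, cells rich in lysosomes, 0 rose and 3 fell (median log2 fold change -0.25), and their summed level ran from 253 to 345 CPM in the con-named and from 213 to 282 CPM in the HF-named libraries. Fibroblast markers (0 of 10 higher and 4 lower, summed 1486 to 1907 and 1218 to 1489 CPM) and endothelial markers (0 of 10 higher and 3 lower, summed 1456 to 1855 and 1156 to 1718 CPM) had calls in the lower direction alone. Cardiomyocyte markers had 2 of 10 higher and 4 lower, with summed levels of 68602 to 77488 and 71146 to 78863 CPM. Mural markers (0 of 8 tested changed; summed 1287 to 1463 and 1474 to 1674 CPM), lymphocyte markers (0 of 5 tested; 4.28 to 8.26 and 4.92 to 11.0 CPM), neutrophil markers (0 of 4 tested; 3.52 to 13.1 and 5.52 to 15.9 CPM) and erythroid markers (1 of 5 higher; 304 to 518 and 334 to 665 CPM) complete the lists. The part of these cell types in the levels of the lysosomal genes was not tested.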

How the data were processed

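The 12 ventricle libraries were made from poly-A RNA, per the labels. In the deposited table are raw read counts per gene, and FPKM that the authors computed from those counts (equal to counts per library total and per 1 length a gene, within 1% in all 9120 genes with at least 100 counts everywhere). That length matched the summed exon length of GENCODE M21 within 1% in 95.4% of 9062 genes, but not for Atg12. The submitters' processing notes name mm10, HTSeq 0.9.1, HISAT2 2.0.5 and cutadapt 1.15. Annotation release and strand setting: not given in the sources used here. Therefore overlapping genes and near-identical copies are uncertain. The authors' deposited comparison table gives log2 fold changes, p-values, adjusted p-values and group means of scaled counts (a signal).

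Groups follow the library names in the description labels. Genes were filtered with filterByExpr (15114 of 54949 kept), scaled by TMM and tested with edgeR 4.0.16 (quasi-likelihood, two-sided, group as the only term, Benjamini-Hochberg over all genes tested, threshold 0.05) in R 4.3.3. SE was taken as |log2 fold change| over the root of the F statistic. Alternatives were RLE, library totals, 2 other filters, DESeq2 1.42.0, limma-voom (limma 3.58.1), a replicate block, no mitochondrial-DNA transcripts, each library left out, and 2 added after the data were seen: a length and GC offset (splines, 5 degrees of freedom; 14904 of 15114 genes had both values from GENCODE M21) and 2 libraries left out together. Tested on simulated data for this comparison (14949 genes), the fit recovered 32.0, 65.3, 89.8 and 100% of genes changed 1.25, 1.5, 2 and 4 times, with 3 of 144 calls false. The data themselves held 2016 calls. With far fewer changed genes the same adjusted p is a stricter cut-off, so these shares do not measure recovery in the data. Changes of the size seen here can still be missed.

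Full values were given for members that passed, the 2 of highest FPKM in each group, Tfeb and Tfe3, and for the 3 genes of smallest p that passed in each wider list, and levels for the 2 of highest FPKM in each marker list. Members and lists were chosen with earlier results of these data known. No test was made on sums, shares or ratios.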

Additional observations from a re-analysis of the deposited data

Results flagged for a closer look

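Among 88 sets of 6 libraries (44 genes in 2 groups), 2 held a library far from the others by Dixon's test at the 95% level, and chance flags about 1 set in 20. Ulk2 was at 64.9 CPM in con-named replicate 5, against 76.1 to 80.9 CPM in the other con-named libraries. Without that library the log2 fold change of Ulk2 was 0.31 (edgeR adjusted p = 0.003). Atg7 was at 29.2 CPM in con-named replicate 2, against 17.6 to 21.0 CPM in the others, and its estimate went from -0.11 to 0.01 without that library, passing in neither fit.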

How the results depend on the processing

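Over all alternatives 1183 values of single genes kept direction and side of the threshold, 56 lost the call, 26 gained one and 33 changed sign. Where no cause is named, the cause was not tested. Members higher numbered 2 under library totals and 2 to 11 with each library left out in turn. Members lower numbered 2 in DESeq2, 2 without mitochondrial-DNA transcripts, 3 with a filter of 1 CPM in 6 libraries, 6 under library totals, 0 with no filter beyond 1 count, 2 with con-named 5 and HF-named 3 both left out, and 0 to 1 with 1 library left out. In the wider lists, library totals gave 10 higher and 29 lower, and leaving out 1 library gave 5 to 11 lower. Over all genes, library totals gave 483 higher and 2582 lower, against 1252 and 764 with TMM. With 1 library left out, all genes had 836 to 1581 higher and 500 to 969 lower. Genes lower numbered 873 in DESeq2, 816 without mitochondrial-DNA transcripts, 896 with the filter of 1 CPM and 600 with no filter beyond 1 count.

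The labels do not state that replicate numbers pair the samples. Deviations of same-numbered libraries correlated from -0.195 to 0.115, and 2 of 6 con-named libraries correlated best with their own number. These values show no strong pairing but cannot exclude a weak one. With the replicate block 3 members were higher (Ulk2, Rb1cc1 and Bnip3) and 0 lower, and the wider lists had 18 higher and 5 lower. Over all 15114 genes the block gave 748 higher and 383 lower, against 1252 and 764 without it.

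Estimates changed sign under library totals, where nearly all estimates shift down, for Becn1 (-0.0050), Pik3c3 (-0.0731), Pik3r4 (-0.0342), Wipi2 (-0.0365), Atg2a (-0.0306), Atg5 (-0.0599), Atg12 (-0.0061), Map1lc3a (-0.0333), Map1lc3b (-0.0524), Gabarapl2 (-0.0998), Fundc1 (-0.0212), Lamp1 (-0.0374), Lamp2 (-0.0037) and Ctsb (-0.0971). Atg16l1 was 0.0012 in DESeq2, and Ctsb was -0.0026 with the length and GC offset. With both libraries left out Atg16l1 was 0.0075, Gabarapl2 -0.0128 and Ctsb -0.0011. With 1 library left out the estimates ran from -0.1536 to 0.0119 for Atg7, -0.0317 to 0.0207 for Atg16l1, -0.0115 to 0.0323 for Gabarapl2, -0.0334 to 0.0195 for Bnip3l, -0.0131 to 0.0320 for Ctsb and -0.0298 to 0.0005 for Mcoln1. Of these 6 genes none passed in any of the 12 fits.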
